A study of Homo sapiens with 12 samples.

Results

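The genes of the cellular oxygen-sensing machinery were followed in HCT116 and SW480, cell lines from human colorectal cancers. They are the hypoxia-inducible factor (HIF) subunits HIF1A, EPAS1 and ARNT, the prolyl hydroxylases EGLN1, EGLN2 and EGLN3, the asparaginyl hydroxylase HIF1AN, and VHL with the elongins ELOB and ELOC. The members are a fixed list of 10 gene symbols, matched to the 17818 genes of the deposited table after the transcripts of each gene had been summed, and all 10 were found. Each line carried either a control vector (genotype NC) or a construct for overexpression of USP51, a ubiquitin-specific protease that removes ubiquitin from proteins. This gives 4 groups, SW480 control, SW480 USP51, HCT116 control and HCT116 USP51. All were grown in serum-containing DMEM, and the labels name neither a low-oxygen treatment nor any other agent. The sources used here do not say which promoter drives the construct, at what oxygen level the cells grew, or whether a line was a clone or a pool.

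The labels describe 3 libraries per group, 12 in all, but no label matches the codes under which single libraries are listed. Every value below is therefore the authors' mean of a group, with no standard deviation and no test across replicates. The names of the means end in C or E, letters that no label explains. Here C was taken for control and E for overexpression of USP51, a reading on which each direction between those groups rests. Total counts of the means were 15506686 to 15920306 per group. Levels are given in TPM, a unit that corrects for transcript length and library total. Ratios of counts per total count carry 95% exact Clopper-Pearson intervals in which each mean counts like a single library. They cover counting error only, so an interval that leaves out 1 does not show that replicates differed.

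In cells with enough oxygen, the EGLN enzymes hydroxylate prolines of the HIF alpha proteins, using oxygen and 2-oxoglutarate. The VHL protein binds the hydroxylated alpha subunit and, with ELOB, ELOC, the scaffold CUL2 and the RING protein RBX1, marks it with ubiquitin for degradation. HIF1AN hydroxylates an asparagine of the alpha subunit, which blocks the binding of coactivators, and an alpha subunit that escapes both joins ARNT and activates genes of glycolysis, pH control and vessel growth. Most of this control acts on proteins, which RNA sequencing does not measure.

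USP51 itself, the targeted gene, was at 0.513 TPM in SW480 control, 25.7 TPM in SW480 USP51, 0 TPM in HCT116 control and 40.8 TPM in HCT116 USP51. The USP51 group was the higher group in both lines. Of 8 markers of colon epithelium, 7 reached 1 TPM in both SW480 groups and 6 in both HCT116 groups. VIL1, an actin-binding protein of the intestinal brush border, was at 0.03 TPM in HCT116 control and 0.02 TPM in HCT116 USP51. LGALS4, a galectin of gut epithelium, was under 1 TPM in all 4 groups.

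The level of EGLN3 with USP51 and the level of EPAS1 between the lines set these 10 genes apart from each other. EGLN3 was the member with the largest ratio of USP51 to control in each line, at 1.61-fold in SW480 and 1.83-fold in HCT116 by counts. EPAS1 in HCT116 control was at 0.174 times its count share in SW480 control, while ARNT, HIF1AN and VHL lay on the other side, at 1.92, 1.90 and 2.12 times. HIF1A, the best-known alpha subunit, was close to an equal level throughout, with ratios of 0.922 and 0.972 for USP51 and of 1.04 and 1.09 between the lines.

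**Figure D1:**
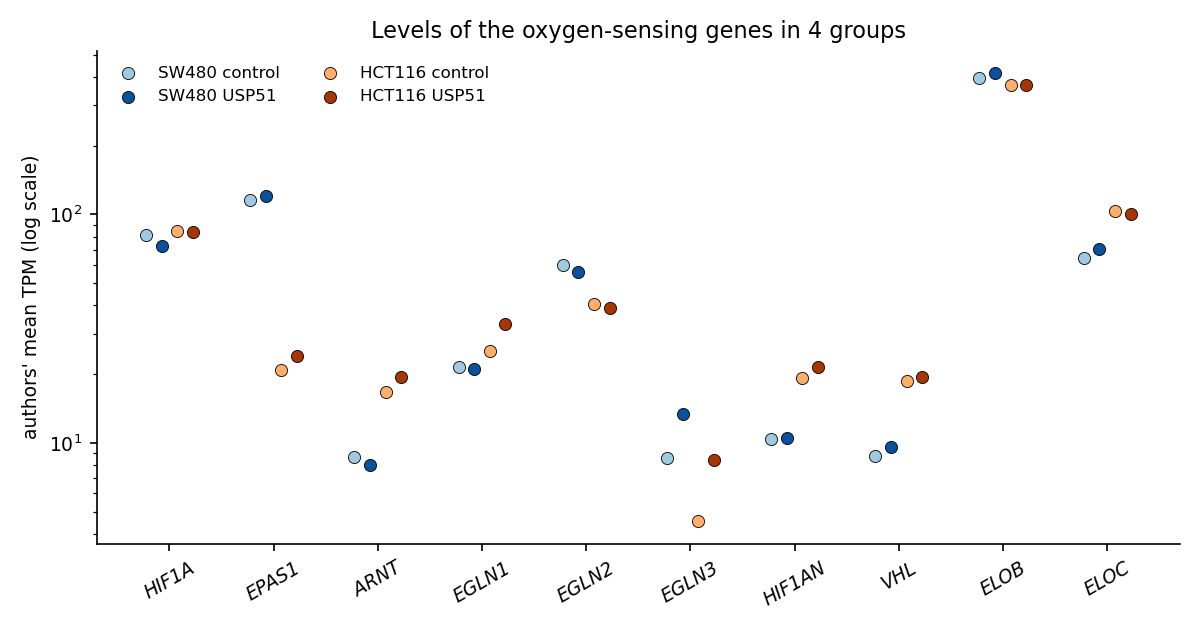
Level of each of the 10 genes in TPM (log axis) in the 4 groups, each point being the authors' mean of a group. ELOB is the highest in every group (368.1 to 415.5 TPM), and the EPAS1 points of SW480 (115.7 and 120.7) lie far from those of HCT116 (20.8 and 23.9).

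The alpha subunits are the oxygen-labile part of the HIF dimer. HIF1A was at 81.5 TPM in SW480 control, 72.9 in SW480 USP51, 85.0 in HCT116 control and 84.1 in HCT116 USP51. Its ratio of USP51 to control was 0.922 (0.876 to 0.970) in SW480 and 0.972 (0.925 to 1.02) in HCT116. All 4 levels of HIF1A thus lay within a narrow band. EPAS1 encodes HIF2A, the other main alpha subunit, which is known for its high expression in endothelium and for driving erythropoietin. It was at 115.7 TPM in SW480 control, 120.7 in SW480 USP51, 20.8 in HCT116 control and 23.9 in HCT116 USP51. Both SW480 groups were high and both HCT116 groups low. The ratio with USP51 was 1.07 (1.04 to 1.11) in SW480 and 1.12 (1.03 to 1.22) in HCT116. In bulk RNA, fewer cells that express a gene and less RNA per cell cannot be told apart.

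The balance of the alpha subunits was opposite in the lines. The ratio of HIF1A to EPAS1 on the TPM scale was 0.704 in SW480 control and 0.604 in SW480 USP51, against 4.09 in HCT116 control and 3.52 in HCT116 USP51. EPAS1 made up 58.7% and 62.3% of the summed alpha level in the SW480 groups, and 19.6% and 22.1% in the HCT116 groups. The summed alpha level was 197.2 and 193.6 TPM in SW480, and 105.8 and 108.0 TPM in HCT116. Endothelial markers, measured because EPAS1 is abundant in that cell type, summed to between 0.23 and 0.417 TPM over 5 genes, with 0 of the 5 at 1 TPM or more in any group.

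ARNT is the constitutive partner that every alpha subunit needs to bind DNA. It was at 8.69 TPM in SW480 control, 7.99 in SW480 USP51, 16.8 in HCT116 control and 19.5 in HCT116 USP51. The HCT116 groups were the higher ones. The ratio with USP51 was 0.956 (0.826 to 1.11) in SW480 and 1.12 (1.01 to 1.24) in HCT116. With more alpha RNA and less ARNT RNA in SW480, the summed alpha level was 22.7 and 24.2 times that of ARNT in the SW480 groups, and 6.31 and 5.54 times in the HCT116 groups.

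The prolyl hydroxylases differ in how their genes respond to oxygen. EGLN1 and EGLN3 are known to be induced by HIF, EGLN2 is not, and EGLN1 is regarded as the main enzyme that sets HIF1A stability. The DNA core that HIF binds is read as ACGTG or GCGTG. Both were searched on both strands in RefSeq windows of GRCh38.p14 that run from 250 bases before to 50 bases after the start of a gene. Windows were found for 8 of the 10 members; VHL and ELOC had no entry. The windows of the 3 prolyl hydroxylase genes are shown because these genes gave the different responses described next, with ACGTG in capitals (for EGLN2 in CACGTG, in which ACGTG reads on both strands with the matches overlapping). They are EGLN1 at chr1:231422238-231422537 on the minus strand, the upstream window of EGLN2 at chr19:40798941-40799240 on the plus strand, and EGLN3 at chr14:33951025-33951324 on the minus strand.
EGLN1: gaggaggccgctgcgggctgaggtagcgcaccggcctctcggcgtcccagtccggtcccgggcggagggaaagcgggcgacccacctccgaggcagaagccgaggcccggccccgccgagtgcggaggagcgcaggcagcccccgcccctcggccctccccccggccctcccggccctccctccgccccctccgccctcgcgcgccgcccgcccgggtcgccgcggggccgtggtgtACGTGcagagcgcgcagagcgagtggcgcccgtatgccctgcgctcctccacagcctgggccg
EGLN2: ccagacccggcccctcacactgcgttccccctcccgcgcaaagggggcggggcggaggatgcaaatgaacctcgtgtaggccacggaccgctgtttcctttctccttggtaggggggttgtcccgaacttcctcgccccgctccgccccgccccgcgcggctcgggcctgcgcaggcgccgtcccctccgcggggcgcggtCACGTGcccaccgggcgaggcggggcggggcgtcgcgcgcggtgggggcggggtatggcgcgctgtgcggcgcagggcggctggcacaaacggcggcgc
EGLN3: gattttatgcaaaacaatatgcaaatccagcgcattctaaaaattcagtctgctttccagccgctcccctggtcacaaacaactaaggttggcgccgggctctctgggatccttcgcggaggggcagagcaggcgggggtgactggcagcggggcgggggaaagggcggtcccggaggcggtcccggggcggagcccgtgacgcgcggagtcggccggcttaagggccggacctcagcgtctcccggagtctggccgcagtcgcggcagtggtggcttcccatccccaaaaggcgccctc
Among 35116 such windows of 27305 genes, 21.4% held ACGTG, 36.5% held GCGTG and 48.4% held either. ACGTG was found in EGLN1 from position -13 to -9 relative to the start, and in EGLN2 within CACGTG from -49 to -44. The EGLN3 window, and those of ARNT and HIF1AN, held neither motif. GCGTG was found in EPAS1, in the upstream window of HIF1A and, at 2 places, in ELOB. A match of 5 letters describes the window and is not a binding site. Bases outside the windows were not searched, so a window without a match does not show that a gene lacks a HIF site. Whether the motifs relate to the responses with USP51 was not tested.

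EGLN3 was at 8.54 TPM in SW480 control, 13.3 in SW480 USP51, 4.54 in HCT116 control and 8.44 in HCT116 USP51. In each line the USP51 group was the higher, and the HCT116 USP51 level equalled about that of SW480 control. The count ratio was 1.61 (1.35 to 1.91) in SW480 and 1.83 (1.45 to 2.32) in HCT116. On the scale of log2(TPM + 1), used for all genes with at least 1 TPM in 1 of the groups compared, the difference was 0.59 in SW480 and 0.77 in HCT116. A ratio of at least 1.5-fold on that scale was used as a rule of size. EGLN3 was the 1 member of 10 above it in each line, and 0 members were below its inverse. Among all genes, 0.534% of 12175 were higher and 0.879% lower by that rule in SW480, and 1.96% of 12393 were higher and 0.145% lower in HCT116. EGLN3 was number 64 from the highest in SW480, just inside the rule, and number 95 in HCT116. No member passed 2-fold, which 0.0739% of genes passed upward and 0.123% downward in SW480, and 0.258% and 0.0242% in HCT116. With a pseudocount of 5 TPM it was below the rule in both lines, at 0.44 and 0.49, and with CPM, without TPM's length scaling, the SW480 genes past the rule were split into 97 higher and 97 lower, against 65 and 107 with TPM.

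EGLN1 was at 21.6 TPM in SW480 control, 21.0 in SW480 USP51, 25.3 in HCT116 control and 33.1 in HCT116 USP51. The HCT116 USP51 group was the highest and the other 3 groups were close together. Its ratio with USP51 was 1.01 (0.919 to 1.11) in SW480 and 1.27 (1.18 to 1.38) in HCT116. On the log2 scale its difference with USP51 was 0.41 larger in HCT116 than in SW480, the widest gap between the lines among the 10 genes, followed by 0.31 for ARNT; at the other end ELOC gave -0.18. With CPM the gaps of EGLN1, ARNT and ELOC were 0.33, 0.22 and -0.26. With curated transcripts alone they were 0.39, 0.06 and -0.21, so the place of ARNT depends on the setting. These gaps were not tested. EGLN2 was at 60.3, 55.7, 40.6 and 38.8 TPM in SW480 control, SW480 USP51, HCT116 control and HCT116 USP51. Its ratios with USP51 were 0.953 (0.877 to 1.04) in SW480 and 0.938 (0.846 to 1.04) in HCT116, so each interval held 1.

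EGLN2 was the most abundant of the 3 hydroxylase RNAs in every group, with 66.7% and 61.8% of their summed TPM in SW480 control and USP51, and 57.6% and 48.3% in HCT116. EGLN1 took 23.8% and 23.4% in SW480, and 35.9% and 41.2% in HCT116. EGLN3 took 9.44% and 14.8% in SW480, and 6.45% and 10.5% in HCT116. The sum of the 3 was 90.5 and 90.1 TPM in SW480, and 70.4 and 80.3 TPM in HCT116. In each line, then, the share of EGLN2 was lower and that of EGLN3 higher in the USP51 group, while the sum in SW480 was nearly the same.

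HIF1AN, the asparaginyl hydroxylase also called FIH, was at 10.4, 10.5, 19.2 and 21.4 TPM in SW480 control, SW480 USP51, HCT116 control and HCT116 USP51. Its ratio with USP51 was 1.04 (0.948 to 1.15) in SW480 and 1.10 (1.03 to 1.18) in HCT116. Its levels differed more between the lines than with USP51.

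VHL, the substrate receptor of the ubiquitin ligase and a tumour suppressor of the kidney, was at 8.75, 9.63, 18.7 and 19.5 TPM in the same order of groups. Its ratio with USP51 was 1.13 (0.986 to 1.30) in SW480 and 1.03 (0.929 to 1.13) in HCT116. Both HCT116 levels lay well above both SW480 levels. The elongins bridge VHL to the cullin and also serve other receptors. ELOB was at 397.6, 415.5, 368.8 and 368.1 TPM, and ELOC at 64.6, 70.7, 103.6 and 99.96 TPM. With USP51, ELOB gave 1.09 (1.02 to 1.16) in SW480 and 0.983 (0.919 to 1.05) in HCT116, and ELOC gave 1.15 (1.05 to 1.25) and 0.954 (0.882 to 1.03). RefSeq annotates 33 pseudogenes of ELOC and 4 of ELOB. None of these is in the table, and the sources used here do not say how reads shared with them were handled.

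The RNAs of the complex were far from equal in level. ELOB was at 6.16 and 5.88 times the TPM of ELOC in SW480, and at 3.56 and 3.68 times in HCT116. ELOC was at 7.38 and 7.34 times the TPM of VHL in SW480, and at 5.55 and 5.13 times in HCT116. The other subunits, CUL2 and RBX1, were picked with their values in view. CUL2, the cullin scaffold, was at 17.4, 17.5, 25.4 and 25.9 TPM, and RBX1, which recruits the ubiquitin-conjugating enzyme, at 56.1, 60.6, 77.9 and 73.8 TPM. VHL was the lowest of the 5 subunits in all 4 groups.

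**Figure D2:**
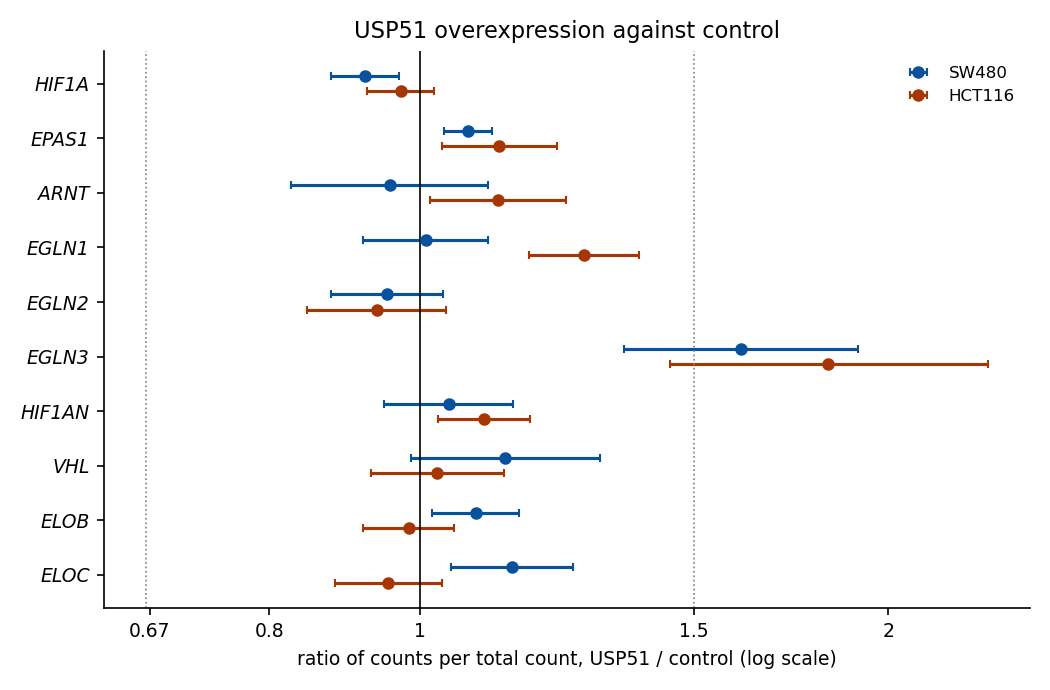
Ratio of counts per total count, USP51 to control (log axis), for the 10 genes in SW480 and HCT116, with 95% exact intervals that cover counting error only and dotted lines at 1.5-fold either way. EGLN3 lies at 1.61 and 1.83, and the other 9 genes lie between 0.922 and 1.27.

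Across the 10 genes, 6 were above and 4 below an equal level in each line. Among all genes measured, 38.8% were above and 61.1% below in SW480, and 60.8% above and 39.2% below in HCT116. EPAS1, EGLN3, HIF1AN and VHL were higher with USP51 in both lines, HIF1A and EGLN2 were lower in both, and the other 4 had opposite signs. The shares of all genes with like or opposite signs in the lines were not computed, so this split describes the members only. With CPM in place of TPM, EGLN1 in SW480 moved from -0.03 to 0.01 and the SW480 split to 7 above and 3 below. The median of all genes in SW480 was 0.001 with CPM, so the TPM shares of all genes are no background for that split. With curated transcripts alone, EPAS1 in SW480 moved from 0.06 to -0.01. The median log2 difference of the members was 0.03 in SW480 and 0.11 in HCT116, against -0.04 and 0.04 over all genes measured. Apart from EGLN3, these differences were small and of either sign.

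The control groups of the lines differed more. VHL, ARNT, HIF1AN and ELOC were higher in HCT116 control than in SW480 control by at least 1.5-fold on the log2(TPM + 1) scale, and EPAS1 and EGLN3 were lower. That is 4 members higher and 2 lower out of 10, where 27% of 13033 genes were higher and 22.6% lower by the same rule, so the members' shares were not far from those of all genes. At 2-fold, VHL was the 1 member higher and EPAS1 the 1 lower, against 14.7% and 13.4% of all genes. By any amount 6 members were above and 4 below, against 53.3% and 46.7% of all genes. The median of the members was 0.14 and that of all genes 0.08.

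By counts, VHL in HCT116 control was at 2.12 (1.87 to 2.40) times SW480 control, ARNT at 1.92 (1.70 to 2.18), HIF1AN at 1.90 (1.74 to 2.06) and ELOC at 1.43 (1.31 to 1.56). EPAS1 was at 0.174 (0.163 to 0.186), EGLN3 at 0.528 (0.417 to 0.665) and EGLN2 at 0.667 (0.608 to 0.731). EGLN1 was at 1.17 (1.07 to 1.28), HIF1A at 1.04 (0.985 to 1.09) and ELOB at 0.960 (0.898 to 1.03). Thus the receptor VHL, the inhibitor HIF1AN and the partner ARNT were all higher in the line with less EPAS1.

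The USP51 groups of the lines gave a separate comparison, which was added after seeing the data and shares no library with the control groups. On the TPM scale all 10 members had the same sign in both comparisons, and 5 passed 1.5-fold in both. The shares of all genes that did so were not computed, so these counts describe the members only. Both comparisons set the same lines against each other, and whether the agreement is particular to these members was not tested. HIF1A between control groups, at 0.06 with TPM, was at -0.06 with TMM factors and at -0.05 with RLE factors. By counts EPAS1 was at 0.182 (0.171 to 0.194), ARNT at 2.26 (1.995 to 2.56), HIF1AN at 1.998 (1.84 to 2.17), VHL at 1.91 (1.70 to 2.15) and EGLN3 at 0.601 (0.503 to 0.716). EGLN1 was at 1.48 (1.36 to 1.61) and ELOC at 1.19 (1.10 to 1.30). Between control groups ELOC passed 1.5-fold on the log2(TPM + 1) scale, at 0.67, but not with CPM, at 0.51. Between USP51 groups EGLN1, at 0.63 on the log2(TPM + 1) scale, took the place of ELOC, at 0.49, among the 4 members higher by 1.5-fold. Of 13130 genes measured there, 31% were higher and 20.2% lower by that rule. At 2-fold, ARNT was the 1 member higher and EPAS1 the 1 lower, against 17.2% and 11.4% of all genes, and by any amount 57.7% of all genes were above and 42.3% below. The median of all genes in the line comparisons was 0.08 and 0.17 with TPM, and -0.03 and -0.0015 with CPM and TMM factors.

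**Figure D3:**
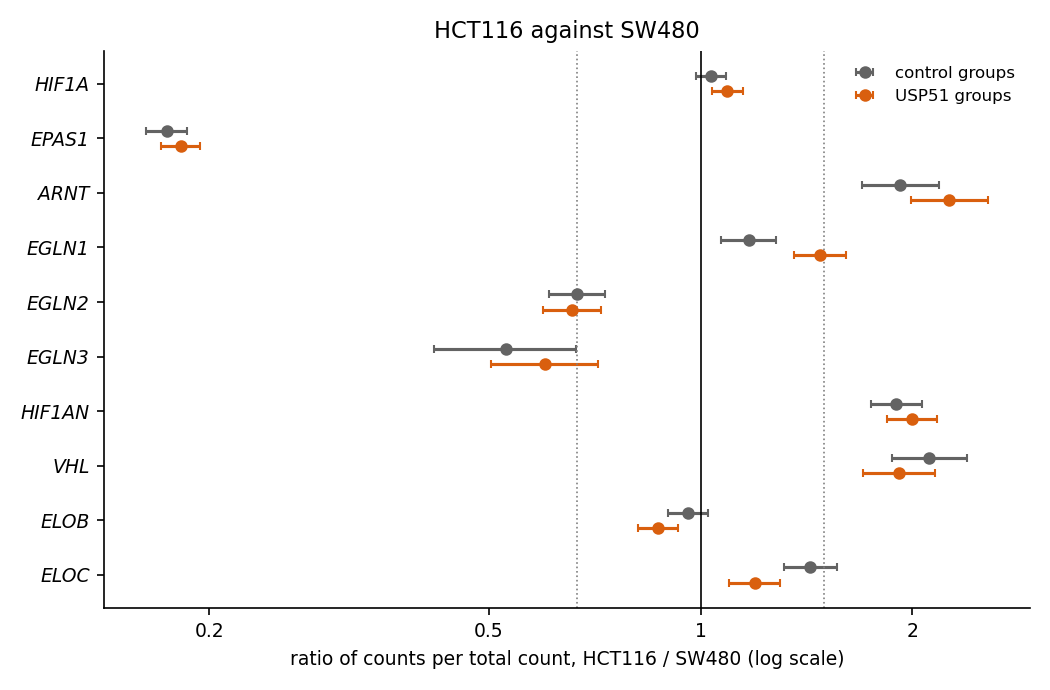
Ratio of counts per total count, HCT116 to SW480 (log axis), for the 10 genes in the control groups and in the USP51 groups, with 95% exact intervals that cover counting error only. EPAS1 lies at 0.174 and 0.182, and ARNT, HIF1AN and VHL lie between 1.90 and 2.26.

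The order of the levels, compared per length, followed these differences. ELOB was the highest in all 4 groups. EPAS1 was number 2 in both SW480 groups and number 6 in both HCT116 groups. In SW480 control the 3 lowest were VHL at 8.75, ARNT at 8.69 and EGLN3 at 8.54 TPM. With no spread between replicates, these neighbours cannot be put in order. In HCT116 EGLN3 was the lowest in both groups.

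The table lists RefSeq transcripts, curated (NM) and predicted (XM), and for EPAS1 the gene total combined transcripts that differed between the lines in opposite directions. The curated transcript NM_001430.5 was at 114.1 TPM in SW480 control, 113.0 in SW480 USP51, 9.89 in HCT116 control and 10.2 in HCT116 USP51. The predicted transcript XM_011532698.2 was at 1.61, 7.68, 10.9 and 13.7 TPM in the same order. By counts, the predicted transcript made up 1.32% (1.04 to 1.64) of EPAS1 in SW480 control, 6.06% (5.49 to 6.67) in SW480 USP51, 51.1% (48.0 to 54.1) in HCT116 control and 56.1% (53.2 to 59.0) in HCT116 USP51. It was the lowest in SW480 control and the larger part of the gene in HCT116. Between control groups the curated transcript in HCT116 was at 0.0861 (0.0785 to 0.0943) times SW480, whereas the predicted transcript was at 6.74 (5.30 to 8.66) times. With USP51 the predicted transcript was at 4.93 (3.86 to 6.37) times control in SW480 and at 1.24 (1.10 to 1.39) times in HCT116. The bases that tell these transcripts apart were not analysed here, and how reads shared by them were assigned is not given in the sources used here.

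**Figure D4:**
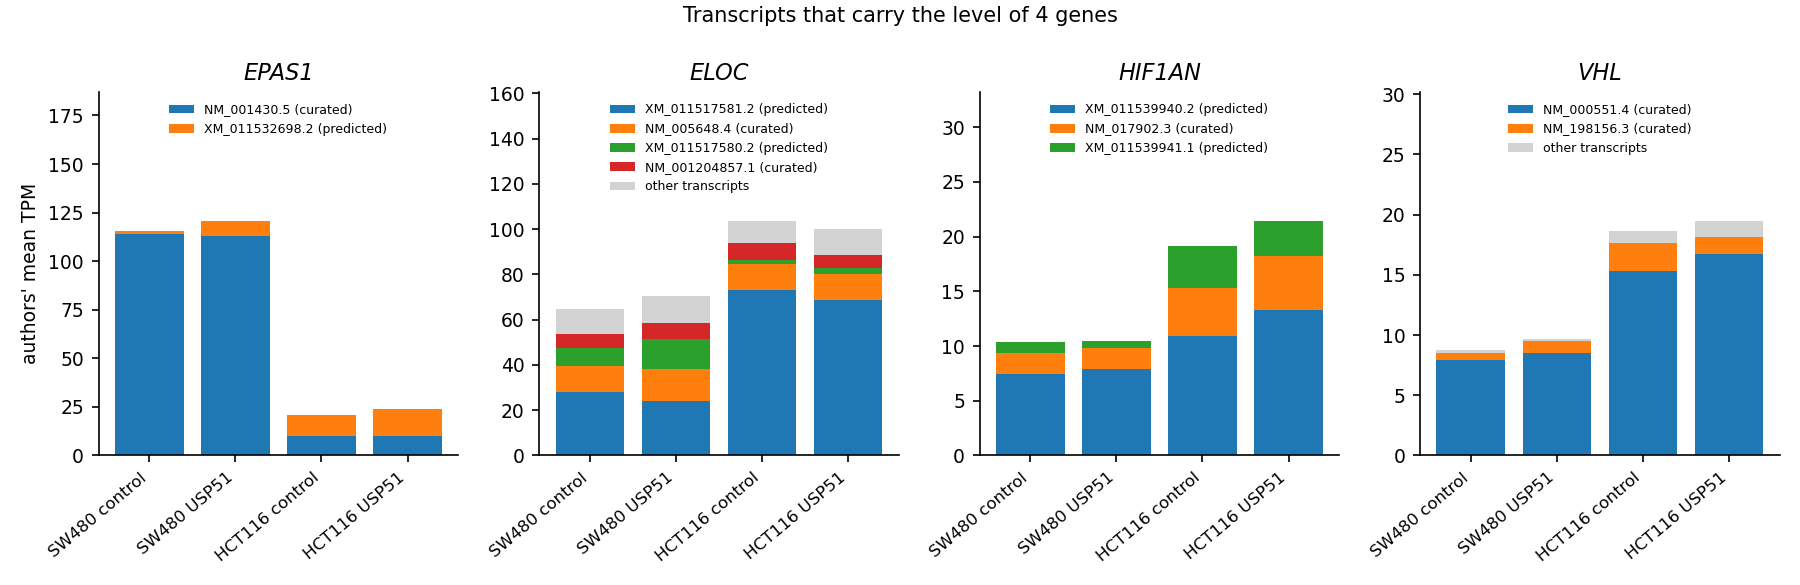
Authors' mean TPM (linear axes that start at 0 and differ between panels) of EPAS1, ELOC, HIF1AN and VHL in the 4 groups, stacked by transcript, with transcripts under 10% in every group in grey. The predicted EPAS1 transcript takes 1.39% and 6.37% of the bars in SW480 and 52.4% and 57.3% in HCT116, and the ELOC transcript XM_011517581.2 takes 43.5% and 34.2% in SW480 and 70.7% and 68.8% in HCT116.

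For ELOC, too, the line difference lay in a predicted transcript. XM_011517581.2 was at 28.1 and 24.2 TPM in SW480 control and USP51, and at 73.3 and 68.8 TPM in HCT116, a ratio of 2.59 (2.26 to 2.97) between controls. The curated NM_005648.4 was at 11.5, 14.2, 11.3 and 11.3 TPM, a ratio of 0.978 (0.804 to 1.19) between controls. With curated transcripts alone the log2 difference of ELOC between the control groups was -0.01, against 0.67 for the whole gene. XM_011517580.2 went the other way, at 7.68 and 13.1 TPM in SW480, and 1.71 and 2.67 TPM in HCT116. NM_001204857.1 was at 6.41, 7.16, 7.38 and 5.67 TPM.

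HIF1AN was mostly carried by predicted transcripts, which held 82.0%, 81.3%, 77.1% and 76.8% of its TPM. XM_011539940.2 was at 7.49, 7.90, 10.9 and 13.3 TPM, XM_011539941.1 at 1.05, 0.61, 3.91 and 3.20 TPM, and the curated NM_017902.3 at 1.87, 1.96, 4.40 and 4.98 TPM. All 3 were higher in both HCT116 groups than in both SW480 groups. ARNT was spread over 20 transcripts. NM_001668.4 was at 2.16, 2.95, 4.66 and 3.92 TPM, and XM_017001288.2 at 1.88, 1.08, 2.42 and 4.27 TPM. NM_178427.3 was at 0.963, 0.67, 1.72 and 2.73 TPM, and XM_017001290.2 at 0.99, 0.437, 0.807 and 0.843 TPM. Curated transcripts alone gave ARNT a log2 difference with USP51 of 0.15 in SW480, against -0.11 for the whole gene, so its sign in that line depends on the transcripts counted.

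EGLN3 had 2 curated transcripts and no predicted one. NM_022073.4 was at 7.72, 11.8, 4.03 and 7.91 TPM, with ratios to control of 1.58 (1.32 to 1.90) in SW480 and 1.93 (1.51 to 2.48) in HCT116. NM_001308103.2 was at 0.827, 1.58, 0.507 and 0.527 TPM, with ratios of 1.91 (1.07 to 3.52) in SW480 and 1.02 (0.401 to 2.60) in HCT116. The main transcript was thus higher with USP51 in both lines, and the minor one in SW480. EGLN1 rested on NM_022051.3, at 19.5, 19.6, 22.3 and 28.4 TPM, with NM_001377260.1 at 1.003, 0.483, 2.38 and 3.40 TPM. EGLN2 rested on NM_080732.4 with 99.5% to 99.8% of its TPM. The 2 transcripts of ELOB were at 266.9, 274.2, 231.3 and 229.9 TPM (NM_207013.3) and at 130.7, 141.4, 137.5 and 138.2 TPM (NM_007108.4).

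VHL transcripts include NM_198156.3, which lacks exon 2 of 3 (123 bases, a multiple of 3, at chr3:10146514-10146636 in GENCODE 29 on GRCh38). The full-length NM_000551.4 was at 7.94, 8.53, 15.3 and 16.7 TPM, and NM_198156.3 at 0.597, 0.98, 2.32 and 1.43 TPM. The transcript without the exon held 6.82% and 10.2% of VHL in SW480, and 12.5% and 7.36% in HCT116, with no common direction with USP51. HIF1A has a comparable variant, NM_181054.3, named after its values had been seen. It lacks exon 14 of 15 of NM_001530, a coding exon of 127 bases, not a multiple of 3, at chr14:61745691-61745817 on the plus strand. In the same annotation NM_181054 also starts at a later base, 61695777 against 61695540. The exon, in lower case throughout, is shown as the internal difference between these transcripts.
HIF1A exon 14: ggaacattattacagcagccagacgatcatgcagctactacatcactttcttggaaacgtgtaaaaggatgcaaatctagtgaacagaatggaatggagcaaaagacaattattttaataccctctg
By counts NM_181054.3 made up 4.92% (4.19 to 5.74) of HIF1A in SW480 control, 4.62% in SW480 USP51, 5.27% in HCT116 control and 3.49% (2.87 to 4.19) in HCT116 USP51. It was a minor form in all 4 groups. HIF1A overlaps 3 annotated antisense genes, HIF1A-AS1, HIF1A-AS2 and HIF1A-AS3, and EGLN2 overlaps the readthrough gene RAB4B-EGLN2. None of the 4 is in the table, and whether counting used strand is not given in the sources used here.

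Genes around these members gave a background for the USP51 comparison. Their counts stand beside those of all genes, of which 61.1% were below an equal level in SW480 and 60.8% above it in HCT116 on the TPM scale. With CPM the median log2 difference of all genes was 0.001 in SW480 and 0.014 in HCT116. The shares of all genes above and below were not computed on that scale. Of 22 partners of the VHL ligase and other users of the elongins, 8 were above and 14 below an equal level in SW480 (median log2 difference -0.02), and 10 above and 12 below in HCT116 (median -0.01). With CPM in place of TPM the splits were 12 above and 10 below in SW480, and 9 and 13 in HCT116. None passed 1.5-fold in either line. Of 13 measured HIF partners and coactivators, 2 were above and 11 below in SW480 (median -0.12), and 11 above and 2 below in HCT116 (median 0.11), again with none past 1.5-fold. With CPM these splits were 3 above and 10 below in SW480 (median -0.09), and 8 above and 5 below in HCT116 (median 0.08), so the opposite lean of the lines was smaller on that scale. HIF3A, the remaining alpha subunit, was under 1 TPM in all 4 groups. Among 18 genes of 2-oxoglutarate and succinate metabolism, which supply or inhibit the hydroxylases, 11 were above and 7 below in SW480 (median 0.01), and 12 above and 6 below in HCT116 (median 0.06), with none past 1.5-fold. With CPM they were 14 above and 4 below in SW480 (median 0.05), and 11 above and 7 below in HCT116 (median 0.04).

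Other regulators of HIF stability were below an equal level in 19 of 22 cases in SW480 (median -0.08), and above it in 15 of 21 in HCT116 (median 0.06), the same lean as all genes with TPM. With CPM these were 17 of 22 below (median -0.04) and 14 of 21 above (median 0.04). The CPM medians of all genes were 0.001 in SW480 and 0.014 in HCT116, so all genes hardly leaned on that scale. UCHL1, a deubiquitinating enzyme reported to stabilise HIF1A, was the 1 gene of this list past 1.5-fold. It was at 9.10 TPM in SW480 control and 5.31 TPM in SW480 USP51, with a count ratio of 0.596 (0.408 to 0.864), and it had a count of 0 in both HCT116 groups.

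HIF-responsive genes, the downstream readout of the pathway, had the largest median of the 5 lists in HCT116. There 19 of 20 were above and 1 below an equal level, with a median of 0.57, and 10 were higher by 1.5-fold, against 1.96% of all genes. In SW480 15 of 19 were above and 4 below, with a median of 0.09, and CA9 was the 1 gene past 1.5-fold. It was higher by 2-fold there as well, which 0.0739% of all genes were. The list was chosen with results of these data known, so its direction is no independent evidence. BNIP3L, a mitophagy receptor, was at 33.6 TPM in HCT116 control and 62.8 in HCT116 USP51, a ratio of 1.83 (1.70 to 1.97), and in SW480 at 28.3 and 30.2 TPM, a ratio of 1.10 (1.01 to 1.20). KDM3A, a histone demethylase, was at 20.9 and 35.4 TPM in HCT116, a ratio of 1.67 (1.54 to 1.81), and at 20.2 and 20.4 TPM in SW480, a ratio of 1.03 (0.942 to 1.13). PFKFB4, a regulator of glycolysis, was at 13.7 and 25.7 TPM in HCT116, a ratio of 1.84 (1.64 to 2.06), and at 8.74 and 8.92 TPM in SW480, a ratio of 1.05 (0.894 to 1.23). PDK1, which restrains entry of pyruvate into mitochondria, was at 6.86 and 11.3 TPM in HCT116 and at 9.38 and 12.9 TPM in SW480, with ratios of 1.66 (1.43 to 1.94) and 1.35 (1.18 to 1.54). P4HA1, a collagen prolyl hydroxylase, was at 20.9 and 42.7 TPM in HCT116 and at 17.7 and 21.1 TPM in SW480. BHLHE40, a transcription repressor, was at 28.9 and 46.3 TPM in HCT116 and at 105.7 and 104.9 TPM in SW480. BNIP3 in HCT116 was at 51.4 and 88.1 TPM. The other 3 past 1.5-fold in HCT116, ANKRD37, CA9 and NDRG1, were also the 3 past 2-fold, with ratios of 2.79 (1.62 to 5.00), 2.89 (1.87 to 4.57) and 2.14 (2.03 to 2.26).

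**Figure D5:**
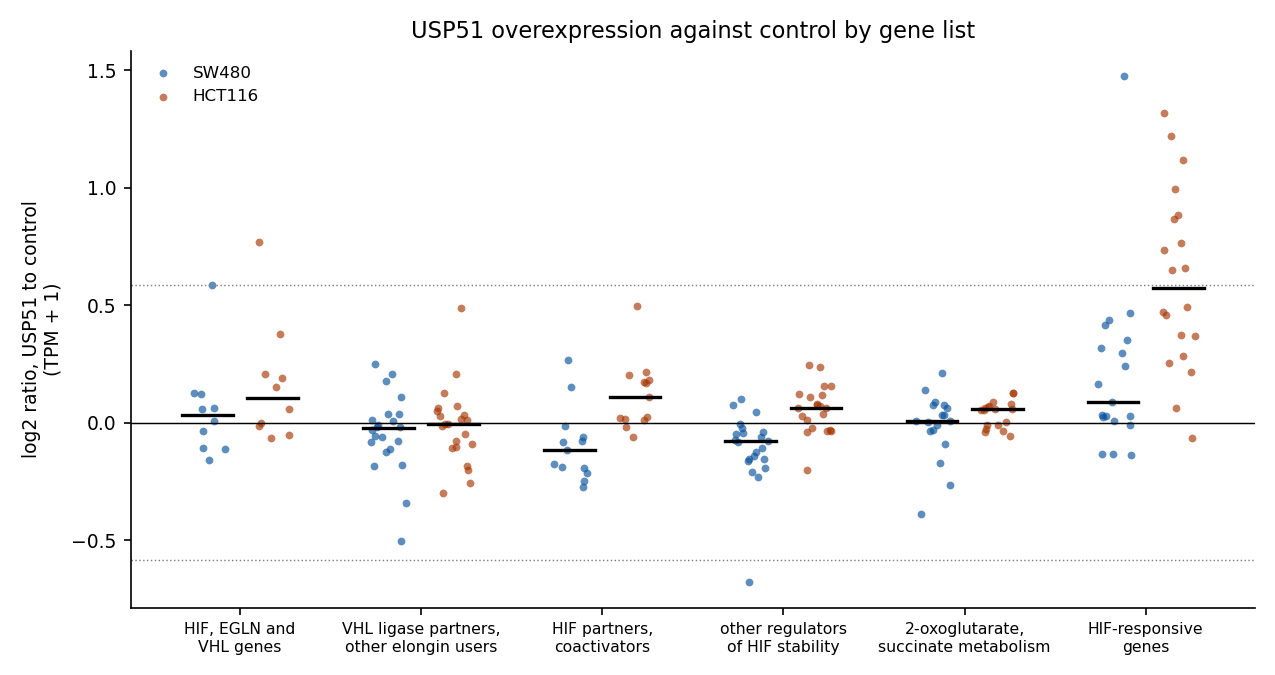
Log2 difference on the TPM + 1 scale, USP51 minus control, of each measured gene in the 5 lists around the pathway and of the 10 members, in SW480 and HCT116, with black bars at the medians and dotted lines at 1.5-fold. The median of the HIF-responsive genes lies at 0.09 in SW480 and 0.57 in HCT116, and the medians of the other 4 lists lie between -0.12 and 0.11.

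Genes with the pattern most like a member were ranked among 11073 genes with at least 1 TPM in every group, by the root mean square distance of centred log2(TPM + 1) over the 4 means. With 4 points that share their groups, such likeness is a description only. EGLN3 had few neighbours, 2 genes within a distance of 0.1. They were CDKN1C, an inhibitor of cyclin-dependent kinases, at a distance of 0.060 with 14.2, 22.3, 8.83 and 14.5 TPM, and TRIM15, of the tripartite motif family, at 0.098 with 7.80, 12.9, 4.45 and 6.80 TPM, followed by BMP6, PDK3 and FOXL1. EPAS1 had 23 genes within 0.1, led by the amino acid transporter SLC1A4 at 0.036 with 19.9, 21.7, 2.87 and 3.68 TPM, then UPK3BL1, the ephrin receptor EPHA4, WASF3 and the stress-response factor DDIT3. ARNT had 420 genes within 0.1, the nearest being SRGAP2B, RNF11, LGR4, TTC33 and PAPSS1. VHL had 504, the nearest being ACO1, EPN2, PLK3, MYO1E and HS6ST1. The patterns of EGLN3 and EPAS1 were shared by fewer genes than those of ARNT and VHL.

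Markers of other cell types were low, with exceptions that moved with the lines. COL1A1, a fibroblast collagen, was at 1.58, 1.33, 9.95 and 15.1 TPM, and the fibroblast markers summed to 1.74, 1.5, 10.1 and 15.3 TPM. It was the 1 fibroblast marker at 1 TPM or more among 4 found in the table. Leukocyte markers summed to between 1.03 and 3.14 TPM, with the pan-leukocyte gene PTPRC at 0 in 3 groups and at 0.0333 TPM in HCT116 USP51. CD14 was the 1 leukocyte marker at 1 TPM or more, at 1.18 TPM in SW480 control and 2.25 TPM in SW480 USP51. In the HCT116 groups no leukocyte marker reached 1 TPM. The part of COL1A1-expressing cells in the line differences was not tested.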

How the data were processed

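Total RNA of 12 libraries was sequenced on a BGISEQ instrument, per the labels' protocols; TopHat, DESeq 1.32.0 and hg38 are named in the submitters' processing notes. RefSeq transcripts fill 84345 rows of the deposited table, with 3 units per the file headers. These are deposited estimated counts, which need not be whole, TPM values, which the authors scaled to a common total, and FPKM values, which the authors divided by length and depth. Which tool counted, and with which strand setting, is not given in the sources used here. In all, 12 columns of the authors' means were used; 36 single-library columns were not, since their codes match no label. Transcripts were summed per gene, and 17672 of 17818 identifiers had a RefSeq symbol. Ratios were log2((TPM + 1)/(TPM + 1)) for genes with at least 1 TPM in 1 of the groups, a scale that understates differences of low genes; 1.5-fold and 2-fold are rules of size. Count intervals used rounded means. The scripts were checked on simulated data. Tools were Python 3.11.15, pandas 2.3.3, scipy 1.17.1, matplotlib 3.10.9, R 4.3.3 and edgeR 4.0.16, the last for scaling factors alone. Named were all members, USP51, list genes past 1.5-fold with USP51 or among the 3 of a list with the largest difference between control groups, the 5 genes nearest to a member that ranged over at least 1 log2 unit, and transcripts with at least 10% of a member. The members and lists were chosen with earlier results of these data known.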

Additional observations from a re-analysis of the deposited data

How the results depend on the processing

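Single-library values were not used, so results have no replicate error, and the planned edgeR and DESeq2 tests and leave-one-out fits were not run. No paired analysis was possible because the columns of means carry no replicate numbers. Other pseudocounts, FPKM, CPM with and without scaling factors, curated transcripts alone and no filter were tried instead. Of 240 values of 30 member ratios under these, 221 moved by less than their counting error and 19 by more. The setting without a filter bears on counts of genes only and gave none of these values. With curated transcripts alone, no ratio or line difference of HIF1A, EGLN2, EGLN3, VHL or ELOB could move, as these genes have no predicted transcript. In 10 of the 240 values, of 5 ratios, the sign changed. These were ELOC between control groups (-0.011), ARNT (0.15) and EPAS1 (-0.014) in SW480 with curated transcripts, EGLN1 in SW480 (from -0.03 to between 0.009 and 0.027) in 5 settings, and HIF1A between control groups in 2 settings (-0.055 and -0.047). EGLN3 ranged from 0.44 to 0.66 in SW480 and from 0.49 to 0.88 in HCT116, and with a pseudocount of 5 the members past 1.5-fold fell to 0 in each line. EPAS1 between lines ranged from -3.40 to -2.23. Genes past 2-fold numbered 24 in SW480, 35 in HCT116 and 3654 between control groups. With a pseudocount of 0.1 they were 74 in SW480 and 127 in HCT116, with 5 they were 7, 8 and 1883, with FPKM 15 and 23, with curated transcripts 38 and 56, and at 1.5-fold 172, 261 and 6472. The differences of the USP51 response between lines moved by less than counting error in 80 of 80 values, but that of EGLN2 changed sign in 5 settings, from 0.05 to between -0.052 and -0.021. Of 184 transcript shares 33 moved beyond their interval, and all 33 came from estimated counts in place of TPM. The rest of the 184 include the FPKM shares, which could hardly move, since FPKM and TPM are proportional within a library.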

Other observations

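Control cells of the lines also differed in genes that work with these members. Among elongin users, SOCS6 was at 4.41 TPM in SW480 control and 29.6 in HCT116 control, a count ratio of 6.68 (5.84 to 7.65), SOCS1 at 1.53 and 9.27 TPM, and FEM1B at 5.99 and 12.7 TPM. All 3 are substrate receptors of ubiquitin ligases, as VHL is. Among HIF coactivators, CDK8, a kinase of the Mediator complex, was at 122.0 TPM in SW480 control and 24.3 in HCT116 control, a ratio of 0.203 (0.186 to 0.220). CITED2, which competes with HIF for the coactivator CBP/p300, was at 18.3 and 45.8 TPM, and SIM2, another partner of ARNT, at 3.43 and 9.77 TPM. MDM2, a ubiquitin ligase best known for p53, was at 5.09 and 23.3 TPM, and the chaperone gene HSP90AB1 at 1328 and 3116 TPM. Of the enzymes around 2-oxoglutarate, OGDH was at 82.1 and 33.6 TPM, SUCLG1 at 151.7 and 99.5, and D2HGDH at 10.97 and 18.5.

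HIF-responsive genes were not uniformly higher in either line. SLC2A1, the glucose transporter GLUT1, was at 824.5 TPM in SW480 control and 179.0 in HCT116 control, a ratio of 0.216 (0.210 to 0.222), and ANKRD37 at 45.7 and 3.47 TPM. BNIP3, a mitophagy receptor related to BNIP3L, was nearly absent from SW480, at 0.233 TPM in control and 0.40 TPM with USP51, and was at 51.4 and 88.1 TPM in HCT116. Its ratio between control groups was 242 (82.3 to 1174), with 3 counts behind the SW480 value. UCHL1 showed the opposite, with a count of 0 in HCT116. At a floor of 3 counts in the HCT116 mean, it was at least 26.6-fold lower in HCT116 control than in SW480 control.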
